A study of Drosophila melanogaster with 18 samples.

Results

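RNA levels were compared between 2 groups of dissected muscle carcass (the body wall left after the internal organs are removed) from third-instar (L3) Drosophila melanogaster larvae: mef2>NUAK550, in which the muscle driver mef2 expressed the kinase NUAK, and mef2>lacZ, in which the same driver expressed the bacterial enzyme lacZ as a control. Libraries were placed in these groups by their labels, 3 in each, 6 of the 18 in the series, and the comparison was picked with earlier results of these data known. The other 12 are a further overexpression group, mef2>NUAK548, and whole larvae of all 3 genotypes. Flies were kept at 25 °C. The labels place NUAK548 and NUAK550 under the same overexpression genotype and do not say what the numbers stand for, so an effect of NUAK and a difference between fly lines cannot be told apart. Sex, the exact age within the L3 stage, the number of larvae per library and the independence of the 3 libraries in a group are not stated. The p-values therefore reflect only how much these libraries varied, and that variation may be technical.

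NUAK belongs to the kinases related to AMPK, which the kinase Lkb1 activates, and in vertebrates and flies it acts on the actomyosin cytoskeleton. In Drosophila larval muscle, NUAK works with Starvin (stv), the fly form of BAG3, in the removal of damaged sarcomere proteins such as filamin (cher) by chaperones and autophagy. Body wall muscle fibres are giant cells that grow throughout larval life by adding sarcomeres and by protein synthesis, and autophagy breaks down their contents in lysosomes. A carcass also holds epidermis, trachea, nerve endings, blood cells (hemocytes) attached under the skin, and remnants of fat body and gland.

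Counted reads per library were 15361307 to 17400341 for lacZ and 16642042 to 19771226 for NUAK550. Log2 levels of libraries of the same group correlated at 0.963 to 0.982. NUAK550 library 2 stood apart from NUAK550 libraries 1 and 3 on the first principal component of the 9 muscle libraries, which held 35% of the variance, with scores of 7.69 against 48.1 and 30. Muscle RNA was described by 10 muscle genes (Mhc, Mlc2, Prm, Tm2, wupA, up, sls, Act57B, Mef2 and bt). Whole larvae hold muscle too, so finding these genes does not test the tissue label. All 10 were detected, and their summed level was 36388 to 55826 CPM (reads per gene scaled by library size and the trimmed mean of M values) in lacZ and 109913, 72828 and 105739 CPM in NUAK550 libraries 1 to 3.

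Nuak (FBgn0262617, 3R 10264306 to 10308467, plus strand, BDGP6) was measured first, as a check of the labels. Its level was 369, 338 and 379 CPM in lacZ and 4248, 3368 and 4237 CPM in NUAK550. The groups did not overlap, and the difference was 10.9-fold (log2 fold change 3.45, SE 0.19, edgeR adjusted p = 0.00016), and the call held under every left-out library. Reads from the native gene and from a transgene cannot be told apart in a count per gene. Lkb1 stood at 20.4, 20.6 and 21.0 CPM in lacZ and 23.7, 24.2 and 24.8 CPM in NUAK550, which did not pass the test (log2 0.23, SE 0.10, adjusted p = 0.16). Mbs, the myosin phosphatase subunit whose vertebrate form binds NUAK kinases, fell from 310, 286 and 311 CPM to 166, 222 and 196 CPM (log2 -0.64, SE 0.13, adjusted p = 0.019). Its call was lost without lacZ library 1, lacZ library 3, NUAK550 library 1 or NUAK550 library 3 (adjusted p up to 0.07).

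Across 9821 tested genes, 633 were higher in NUAK550 and 600 lower at an adjusted p below 0.05, which is 12.6% of the tested genes in all, 6.45% higher and 6.11% lower. At least 2-fold changes were found for 279 of the higher and 137 of the lower genes, and the median log2 fold change of all tested genes was 0.03. In 17.8% of tested genes all 3 NUAK550 libraries lay above all 3 lacZ libraries, and in 16.3% they lay below. The call held for 346 of the 1233 genes when each of the 9 muscle libraries was left out in turn. The number of calls was 459 without lacZ library 1, 670 without lacZ library 2, 509 without lacZ library 3, 590 without NUAK550 library 1 and 403 without NUAK550 library 3. It was 987 to 1297 without NUAK550 library 2 or any NUAK548 library. Because of this, the paragraphs on gene lists say which calls against lacZ hold under every left-out library.

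**Figure D1:**
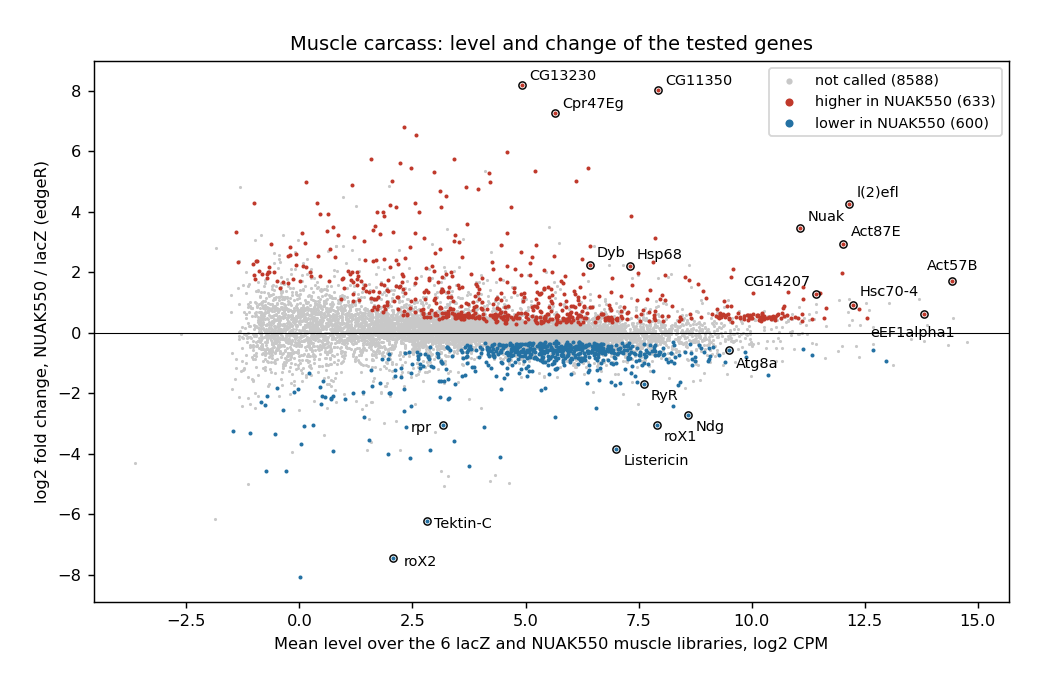
Each point is 1 of 9821 tested genes, with its mean level over the 6 libraries on the x axis (log2 CPM, 0.01 added) and its log2 fold change, NUAK550 over lacZ, on the y axis. Called genes are in red (633 higher) and blue (600 lower), and the labels mark genes described in the text, from CG13230 at 8.17 to roX2 at -7.45.

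The small heat shock protein l(2)efl (2R 23684651 to 23685543, minus strand), an alpha-crystallin family chaperone of muscle, was 393, 501 and 458 CPM in lacZ and 8131, 8940 and 8916 CPM in NUAK550. The groups were far apart and the 3 libraries within each were close, with a 19.2-fold difference (log2 4.27, SE 0.17, adjusted p = 3e-05). A second small heat shock protein, CG14207, was 1863, 1432 and 1448 CPM in lacZ and 3247, 4523 and 3864 CPM in NUAK550 (log2 1.29, SE 0.17, adjusted p = 0.0034). These 2 genes were the called members among 9 tested small heat shock proteins (22.2% higher beside 6.45% of all tested genes). The heat-inducible Hsp23, Hsp26 and Hsp27 had log2 values of -0.56, -0.56 and -0.70 with overlapping groups and adjusted p from 0.43 to 0.61.

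Among 27 tested genes of the Hsp70, Hsp90 and chaperonin families, 4 rose and 0 fell, with a median log2 of 0.10. The share higher was 14.8%, beside 6.45% of all tested genes. Hsc70-4, the constitutive cytosolic Hsp70, was 3236, 3431 and 3429 CPM in lacZ and 6745, 5985 and 6157 CPM in NUAK550 (log2 0.90, SE 0.14, adjusted p = 0.0058). Hsp68, a stress-inducible Hsp70, was 93.7, 32.1 and 41.9 CPM in lacZ and 218, 279 and 281 CPM in NUAK550 (log2 2.21, SE 0.37, adjusted p = 0.0088), so that the groups did not overlap although lacZ library 1 was above the other two. The chaperonin subunits CCT1 and CCT2 rose by log2 0.42 and 0.40, and Hsp83, the fly Hsp90, did not pass the test (log2 -0.20, SE 0.17, adjusted p = 0.47). The calls of l(2)efl, CG14207, Hsc70-4 and Hsp68 held under every left-out library, while those of CCT1 and CCT2 were lost without lacZ library 1, 2 or 3 or NUAK550 library 1 or 3, and that of CCT2 also without NUAK550 library 2 or NUAK548 library 3 (adjusted p up to 0.12).

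Of 8 genes of chaperone-assisted autophagy, l(2)efl and Hsc70-4 were the called members (25.0% higher beside 6.45% of all tested genes). The gene stv, for the BAG3 protein that couples Hsp70 to autophagy, was 160, 197 and 209 CPM in lacZ and 263, 196 and 261 CPM in NUAK550 (log2 0.35, SE 0.20, adjusted p = 0.30). The gene cher, for the filamin of the Z-disc, was 2620, 1759 and 2227 CPM in lacZ and 1622, 2922 and 2092 CPM in NUAK550 (log2 0.01, SE 0.23, adjusted p = 0.99). Both pairs of groups overlapped.

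**Figure D2:**
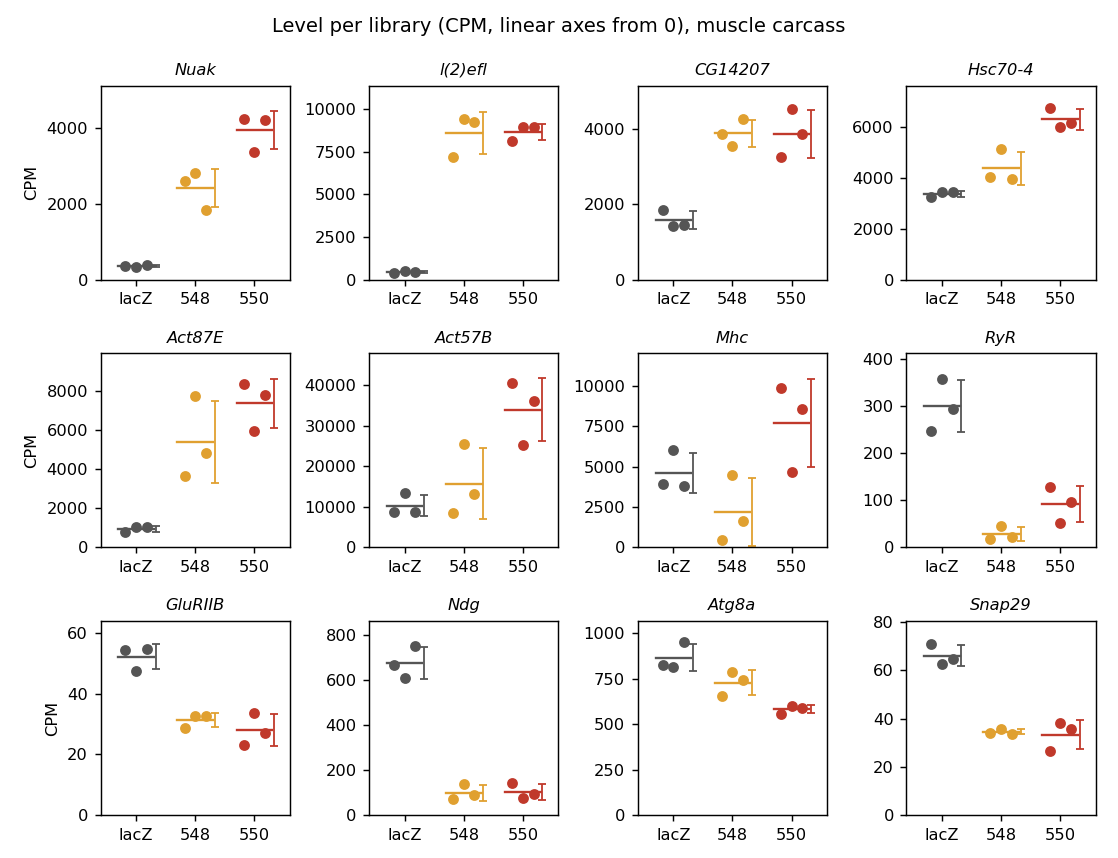
Levels in CPM on linear axes that start at 0, for 12 genes in the 9 muscle libraries (lacZ grey, NUAK548 orange, NUAK550 red, the last named by their digits in the panels). Points are libraries 1 to 3 from left to right, lines are group means and bars are SD over 3 libraries. The l(2)efl libraries of NUAK550 sit between 8131 and 8940 CPM and those of lacZ between 393 and 501 CPM, while the Mhc groups overlap.

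Genes of the contractile apparatus lay mostly higher in NUAK550, and 7 of the 47 tested sarcomere genes rose while 4 fell. Beside the background of 6.45% higher and 6.11% lower over all tested genes, these are 14.9% and 8.51%, and the median log2 fold change of the 47 genes was 0.43. Because fibres and other cells were sequenced together, a larger share of muscle in the carcass and more RNA per fibre cannot be told apart here or in any result below. The 7 sarcomere genes that rose were 2 actins, a calponin-family protein, 2 troponin C genes, a PDZ-LIM protein and a muscle LIM protein. Sarcomere genes here means members of the thin filament, thick filament and Z-disc lists, which also hold genes not confined to the sarcomere. Among those are Act5C and Act42A, the myosin genes zip, sqh and Mlc-c, and actin regulators such as tsr, twf, cpa and cpb.

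In the thin filament, 5 of 17 tested genes rose and 0 fell (29.4% higher beside 6.45% of all tested genes, median log2 0.83). In 10 of the 17 all 3 NUAK550 libraries lay above all 3 lacZ libraries, beside 17.8% of all tested genes. Act87E, an actin of larval muscle, was 771, 1033 and 1065 CPM in lacZ and 8381, 5974 and 7801 CPM in NUAK550 (log2 2.95, SE 0.30, adjusted p = 0.0012). Act57B, another muscle actin, was 8703, 13426 and 8856 CPM in lacZ and 40534, 25341 and 36020 CPM in NUAK550 (log2 1.72, SE 0.40, adjusted p = 0.028). NUAK550 library 2 was the lowest of its group for both actins, yet still above every lacZ library. The actin genes are near-identical copies, and how the authors' counting divided reads between them is not given, so the split between them is uncertain. The actins used by all cells did not pass the test, with log2 values of -0.35 for Act5C and -0.13 for Act42A.

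Mp20, the calponin-family protein, rose from 1476, 2183 and 1318 CPM to 7104, 5228 and 7354 CPM (log2 1.98, SE 0.38, adjusted p = 0.015). Troponin C gene TpnC73F, a calcium sensor of the thin filament, rose from 2382, 2429 and 2162 CPM to 3958, 4115 and 4282 CPM (log2 0.83, SE 0.13, adjusted p = 0.0076). Here library 2 did not stand lower. TpnC41C rose at a low level, from 0.248, 0.638 and 0.486 CPM to 0.791, 2.61 and 2.19 CPM (log2 2.01, SE 0.51, adjusted p = 0.036). The tropomyosins Tm1 and Tm2 (log2 1.33 and 1.11), troponin T (up, log2 0.97) and troponin I (wupA, log2 0.69) were higher in every NUAK550 library than in any lacZ library and missed the threshold, with adjusted p from 0.056 to 0.17. The calls of Act87E and TpnC73F held under every left-out library. Those of Act57B, Mp20 and TpnC41C were each lost under 3 to 7 of the 9 (adjusted p up to 0.12). Without NUAK550 library 3, lacZ library 1 or lacZ library 3, 2 sarcomere genes were called higher, both of the thin filament, and without lacZ library 2 there were 4, of which 3 were of the thin filament.

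In the thick filament, 0 of 12 tested genes rose and 1 fell (8.33% lower beside 6.11% of all tested genes), with a median log2 of 0.53. Myosin heavy chain (Mhc) was 3950, 6034 and 3812 CPM in lacZ and 9840, 4676 and 8600 CPM in NUAK550 (log2 0.74, SE 0.69, adjusted p = 0.52), and the groups overlapped through NUAK550 library 2 and lacZ library 2. The light chains Mlc1 and Mlc2 and paramyosin (Prm) lay above lacZ in all 3 libraries with log2 values of 1.09, 1.11 and 0.99 and adjusted p of 0.18, 0.24 and 0.065. Strn-Mlck, a giant protein of the thick filament, fell from 300, 404 and 367 CPM to 230, 133 and 218 CPM (log2 -0.88, SE 0.23, adjusted p = 0.043). That call was lost under 7 of the 9 left-out libraries (adjusted p up to 0.12).

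At the Z-disc, 2 of 18 tested genes rose and 3 fell, with a median log2 of 0.22. These are 11.1% and 16.7%, beside 6.45% and 6.11% of all tested genes. Zasp66, a PDZ-LIM protein that binds alpha-actinin, rose from 4115, 4014 and 3648 CPM to 5578, 7871 and 6710 CPM (log2 0.78, SE 0.15, adjusted p = 0.016). The muscle LIM protein Mlp60A rose from 981, 1583 and 953 CPM to 3416, 2725 and 3882 CPM (log2 1.51, SE 0.40, adjusted p = 0.043). The 3 that fell are regulators of actin filament turnover: flr, which with cofilin disassembles filaments (645, 733 and 678 to 413, 348 and 374 CPM, log2 -0.86, SE 0.15, adjusted p = 0.0097), the capping protein subunit cpb (log2 -0.40) and the monomer-binding protein twf (log2 -0.35, with 22.7% of its exon length overlapping another gene). Alpha-actinin (Actn) and the titin-like sls overlapped between the groups, at log2 0.74 and 0.54, and 20.7% of the exon length of Actn overlaps another gene. No Z-disc call held under every left-out library: each lacZ library, each NUAK550 library and NUAK548 library 3 cost at least 1 of the 5 its call (adjusted p up to 0.14). All 5 were lost without NUAK550 library 3.

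**Figure D3:**
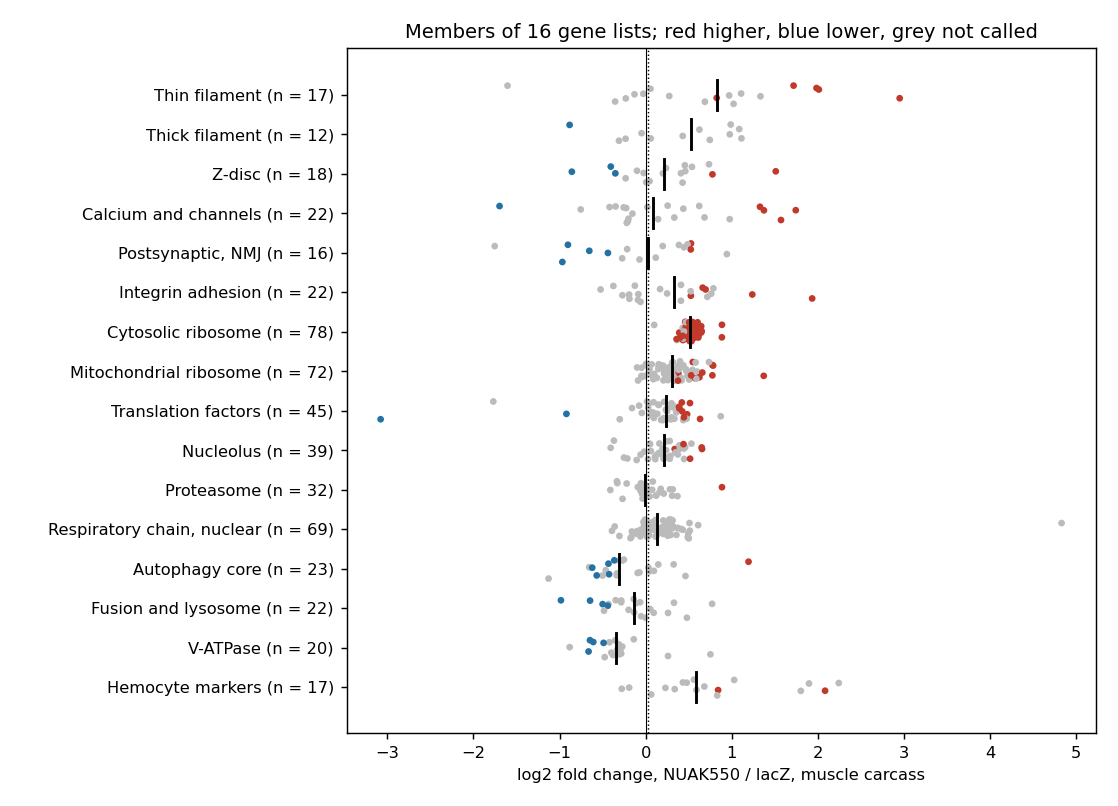
Log2 fold changes, NUAK550 over lacZ, of the tested members of 16 gene lists (1 point per gene, spread vertically at random within a list). Red and blue points are called genes, black bars are list medians, and the dotted line is the median of all tested genes, 0.03. The cytosolic ribosome sits as a narrow group around its median of 0.52, while V-ATPase and autophagy core medians are -0.34 and -0.31.

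Attachment of muscle to matrix and tendon depends on integrins, and 5 of 22 tested integrin adhesion genes rose while 0 fell (22.7% higher beside 6.45% of all tested genes, median log2 0.33). The alpha integrin inflated (if), which muscle carries at its attachment sites, rose from 130, 173 and 163 CPM to 431, 263 and 404 CPM (log2 1.24, SE 0.26, adjusted p = 0.020). Also called were ItgaPS5 (log2 1.93), the tensin by (log2 0.70), kon, which guides muscle to tendon (log2 0.66), and the kinase-like adaptor Ilk (log2 0.52). The beta integrin mys (log2 0.25) and talin (rhea, log2 -0.52) did not pass the test. The 5 calls were each lost when at least 1 of the lacZ libraries, NUAK550 library 1 or NUAK550 library 3 was left out (adjusted p up to 0.11). Without NUAK550 library 1, NUAK550 library 3 or lacZ library 1, 0 of the 22 genes were called higher, and without lacZ library 2 or lacZ library 3 there were 1 and 2.

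The dystrophin complex links the fibre cytoskeleton to the matrix, and its members moved in different directions. Dystrobrevin (Dyb) rose from 24.2, 35.0 and 29.5 CPM to 158, 106 and 160 CPM (log2 2.25, SE 0.30, adjusted p = 0.0036). Delta-sarcoglycan (Scgdelta) rose from 3.10, 2.96 and 2.07 CPM to 16, 7.94 and 13.8 CPM (log2 2.21, SE 0.44, adjusted p = 0.016). Dystrophin (Dys) fell from 119, 143 and 147 CPM to 101, 80.2 and 93.2 CPM (log2 -0.57, SE 0.13, adjusted p = 0.025). The Dyb call held under every left-out library. The Dys call was lost without lacZ library 2 or 3 or NUAK550 library 2 or 3 (adjusted p up to 0.086), and that of Scgdelta without any lacZ library, NUAK550 library 1 or NUAK550 library 3 (adjusted p up to 0.063).

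Of 19 tested basement membrane genes 1 rose and 3 fell (5.26% and 15.8%, beside 6.45% and 6.11% of all tested genes). Their median log2 was 0.32, and 13 of the 19 had values above 0. The other 15, with Col4a1, vkg, trol and LanA among them, were not called. Nidogen (Ndg), which joins laminin and collagen IV networks, was 665, 607 and 748 CPM in lacZ and 141, 74.9 and 92.8 CPM in NUAK550. The groups were widely separated and the fall was 6.54-fold (log2 -2.71, SE 0.31, adjusted p = 0.0021). The matrix metalloprotease Mmp2 fell by 0.84 on the log2 scale (SE 0.14, adjusted p = 0.0084), and both calls held under every left-out library. The collagen hydroxylase PH4alphaEFB fell (log2 -0.56) and the collagen-binding SPARC rose (log2 0.92, SE 0.21, adjusted p = 0.026). These 2 calls were each lost under 5 left-out libraries of the lacZ and NUAK550 groups (adjusted p up to 0.097).

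Excitation genes changed gene by gene, with 4 of 22 tested genes of calcium handling and ion channels higher and 1 lower (18.2% and 4.55%, beside 6.45% and 6.11% of all tested genes, median log2 0.08). The ryanodine receptor (RyR), the calcium release channel of the sarcoplasmic reticulum, was 247, 357 and 294 CPM in lacZ and 129, 51.8 and 96.8 CPM in NUAK550 (log2 -1.70, SE 0.41, adjusted p = 0.030). The pump SERCA, which refills the store, was 1347, 1944 and 1222 CPM in lacZ and 2773, 1587 and 2587 CPM in NUAK550 and did not pass the test (log2 0.62, SE 0.39, adjusted p = 0.34). The potassium channels Shaw and sand rose by log2 1.74 and 1.37, the T-type calcium channel Ca-alpha1T by 1.57 and the channel subunit Ca-beta by 1.33. The calls of Shaw and Ca-alpha1T held under every left-out library. Those of RyR, sand and Ca-beta were lost under 4 or 5, all of them lacZ or NUAK550 libraries (adjusted p up to 0.097).

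Of 16 tested postsynaptic genes 2 rose and 4 fell (12.5% and 25.0%, beside 6.45% and 6.11% of all tested genes, median log2 0.02). The 4 that fell were among the 5 subunits of the glutamate receptors that muscle places opposite motor nerve endings. GluRIIB, which forms 1 of the receptor types with fast desensitisation, fell from 54.4, 47.4 and 54.8 CPM to 23.1, 33.5 and 27.1 CPM (log2 -0.90, SE 0.14, adjusted p = 0.0070). GluRIIE, an obligate subunit, fell from 65.3, 94.4 and 89.9 CPM to 48.1, 38.4 and 41.1 CPM (log2 -0.97, SE 0.20, adjusted p = 0.018). GluRIID (log2 -0.65) and GluRIIA (log2 -0.44) fell as well. GluRIIC, also obligate, lay the other way without passing the test, at 59.0, 84.7 and 82.8 CPM in lacZ and 154, 124 and 157 CPM in NUAK550 (log2 0.94, SE 0.30, adjusted p = 0.072). The cell adhesion protein Fas2 and the synaptic exchange factor RtGEF rose by log2 0.53 and 0.52. The GluRIIB call held under every left-out library. The other 5 were lost when lacZ libraries, NUAK550 library 1 or NUAK550 library 3 were left out (adjusted p up to 0.12), and 1 of the 4 receptor genes was called without lacZ library 2, lacZ library 3 or NUAK550 library 3.

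Ribosomal protein genes formed the most uniform group. Of 78 tested cytosolic ribosomal protein genes 65 rose and 0 fell, or 83.3% beside 6.45% of all tested genes, with log2 values from 0.10 to 0.89 and a median of 0.52. In 76 of the 78 genes all 3 NUAK550 libraries lay above all 3 lacZ libraries, beside 17.8% of all tested genes. RpS12 rose from 501, 596 and 471 CPM to 1047, 929 and 923 CPM (log2 0.89, SE 0.13, adjusted p = 0.0058), RpL41 by log2 0.89 and RpS6 from 1191, 1231 and 1073 CPM to 1692, 1657 and 1739 CPM (log2 0.54, SE 0.11, adjusted p = 0.015). RpLP0 lay above lacZ in all 3 libraries and missed the threshold (log2 0.44, SE 0.14, adjusted p = 0.072). The summed level of the 78 genes was 75563, 83939 and 71139 CPM in lacZ and 111926, 110030 and 110582 CPM in NUAK550, so library 2 did not stand apart in this sum.

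The number of ribosomal calls fell when any lacZ or NUAK550 library was left out, as did the number of calls over all tested genes. With 1 library left out, the number of called ribosomal genes was 3 without NUAK550 library 3, 7 without lacZ library 3, 8 without lacZ library 1, 21 without NUAK550 library 1, 34 without NUAK550 library 2, 46 without lacZ library 2 and 50 to 68 without a NUAK548 library. The calls of RpL36A, RpS12 and RpL27 held under all 9. In every one of these fits 0 ribosomal genes were called lower.

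**Figure D4:**
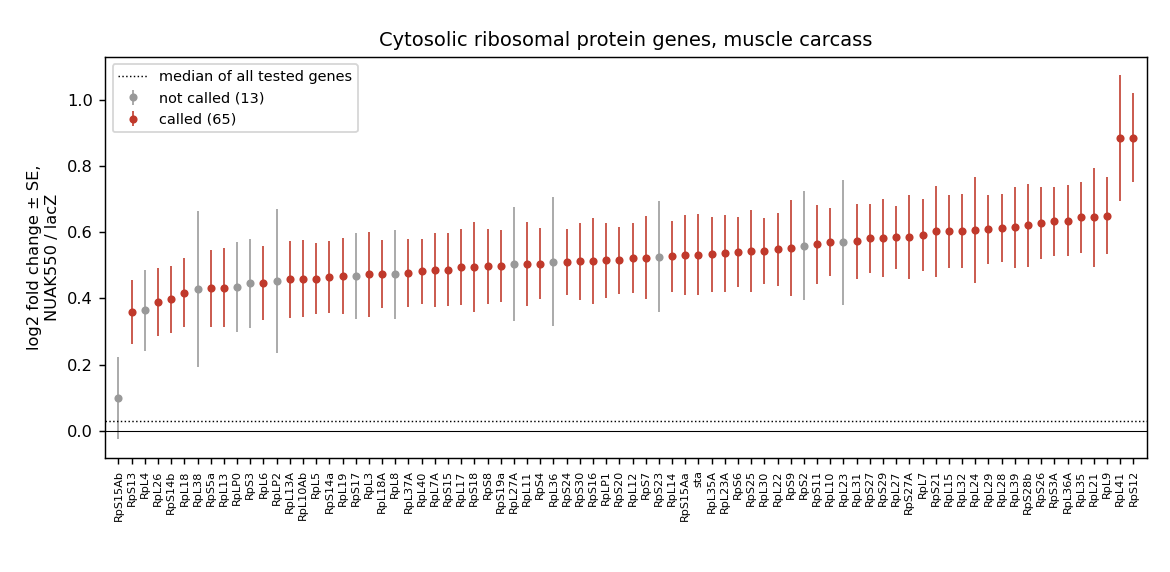
Log2 fold change, NUAK550 over lacZ, of the 78 tested cytosolic ribosomal protein genes, ordered by value, with bars of 1 SE. Red marks the 65 called genes and grey the 13 others, and the dotted line is the median of all tested genes. All 78 values are above 0, from 0.10 to 0.89.

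Other parts of protein synthesis moved less uniformly. Of 72 tested mitochondrial ribosomal protein genes 11 rose and 0 fell (15.3% beside 6.45% of all tested genes, median log2 0.31). The gene mRpL11 rose from 5.08, 5.28 and 4.38 CPM to 12.5, 13.9 and 11.7 CPM (log2 1.37, SE 0.15, adjusted p = 0.0019). Its call and that of mRpL33 (log2 0.77) held under every left-out library, while 2 of the 72 genes were called without NUAK550 library 3, lacZ library 1 or lacZ library 3, 3 without NUAK550 library 1 and 4 without NUAK550 library 2. Of 45 translation factors 8 rose and 2 fell (17.8% and 4.44%, beside 6.45% and 6.11% of all tested genes, median log2 0.24). Elongation factor eEF1alpha1 rose from 11270, 11648 and 11139 CPM to 18450, 16482 and 17844 CPM (log2 0.63, SE 0.13, adjusted p = 0.017), while eEF2 rose by log2 0.48. The exchange factor subunit eIF2Bdelta fell from 64.5, 51.7 and 44.6 CPM to 26.4, 31.1 and 27.4 CPM (log2 -0.92, SE 0.16, adjusted p = 0.0098). Its call alone among the 10 held under every left-out library (adjusted p of the others up to 0.16). The number of translation factors called higher was 0 without lacZ library 1, lacZ library 3 or NUAK550 library 3, 1 without lacZ library 2 or NUAK550 library 1, and 3 without NUAK550 library 2 or NUAK548 library 3.

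Ribosome production genes gave 5 higher and 0 lower of 39 nucleolar genes (12.8% higher beside 6.45% of all tested genes, median log2 0.21). Among the higher genes was the GTPase Non1 (457, 466 and 544 to 754, 787 and 766 CPM, log2 0.65, SE 0.12, adjusted p = 0.013), together with the exosome subunit Rrp4 (log2 0.65). The growth regulator Myc did not pass the test (log2 0.20, SE 0.19, adjusted p = 0.55), and 61.2% of its exon length overlaps another gene. On the side of protein breakdown, 1 of 32 proteasome genes rose and 0 fell (3.12% higher beside 6.45% of all tested genes, median log2 -0.01). None of the nucleolar or proteasome calls held under every left-out library, with each of the 9 libraries costing at least 1 nucleolar call (adjusted p up to 0.16). Nucleolar calls numbered 0 without lacZ library 1 or NUAK550 library 3, 1 without lacZ library 3, 2 without NUAK550 library 1, and 3 without lacZ library 2, NUAK550 library 2 or NUAK548 library 3. Thor, the fly 4E-BP that restrains cap-dependent translation, rose from 125, 169 and 249 CPM to 716, 445 and 642 CPM (log2 1.73, SE 0.30, adjusted p = 0.0097). Its call held under every left-out library.

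Autophagy genes lay mostly lower in NUAK550. Of 45 tested genes of autophagosome formation, fusion and lysosomes 1 rose and 9 fell, which is 20.0% lower beside 6.11% of all tested genes, and the median log2 was -0.25. In 22 of the 45 all 3 NUAK550 libraries lay below all 3 lacZ libraries, beside 16.3% of all tested genes. The autophagy core medians of the 3 NUAK550 libraries were close, at -0.39, -0.27 and -0.27 on the log2 scale relative to mean lacZ, beside 0.00, 0.00 and -0.03 in lacZ.

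Among 23 core genes, Atg8a, the ubiquitin-like protein that coats the autophagosome, fell from 828, 817 and 951 CPM to 559, 603 and 589 CPM (log2 -0.57, SE 0.12, adjusted p = 0.018). The Atg8a-conjugating enzyme Atg3 (log2 -0.43), its partner Atg5 (log2 -0.62), the initiation scaffold Atg17 (log2 -0.42) and the lipid kinase subunit Atg6 (log2 -0.36) also fell. Atg16, which joins Atg5 in the conjugation complex, rose from 26.1, 28.4 and 29.2 CPM to 70.5, 54.2 and 66.9 CPM (log2 1.19, SE 0.23, adjusted p = 0.015). The initiating kinase Atg1 lay below lacZ in all 3 libraries (94.5, 73.3 and 69.0 against 40.2, 57.4 and 52.7 CPM) and did not pass the test (log2 -0.66, SE 0.23, adjusted p = 0.097). The cargo receptor ref(2)P was at log2 -0.33 (SE 0.14, adjusted p = 0.17).

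Downstream, Snap29, a SNARE that fuses the autophagosome with the lysosome, fell from 70.9, 62.5 and 64.9 CPM to 26.5, 38 and 35.7 CPM (log2 -0.98, SE 0.13, adjusted p = 0.0040). Its partner Syx17 did not pass the test (log2 -0.05, SE 0.13, adjusted p = 0.83). The GTPase Rab2, needed for the same fusion, fell from 223, 226 and 228 CPM to 127, 159 and 146 CPM (log2 -0.65, SE 0.11, adjusted p = 0.010). The tether Epg5 (log2 -0.50) and the lysosomal cholesterol transporter Npc1a (log2 -0.44) fell too, while the protease cathD lay above lacZ without passing the test (log2 0.48, SE 0.14, adjusted p = 0.061).

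The proton pump that acidifies lysosomes, the V-ATPase, had 0 of 20 tested subunit genes higher and 4 lower (20.0% beside 6.11% of all tested genes, median log2 -0.34). In 14 of the 20 all 3 NUAK550 libraries lay below all 3 lacZ libraries, beside 16.3% of all tested genes. Vha68-1 fell from 77.5, 75.3 and 75.1 CPM to 48.0, 48.9 and 52.6 CPM (log2 -0.61, SE 0.08, adjusted p = 0.0028). Vha14-1 fell from 143, 152 and 137 CPM to 84.1, 99.9 and 91.6 CPM (log2 -0.65, SE 0.10, adjusted p = 0.0058). VhaPPA1-1 and VhaM9.7-b fell by log2 -0.66 and -0.49. The calls of Snap29, Rab2, Vha68-1 and Vha14-1 held under every left-out library. The other autophagy calls were lost when lacZ or NUAK550 libraries were left out (adjusted p up to 0.12), and the number of lower autophagy genes was 2 without lacZ library 1, lacZ library 3 or NUAK550 library 3, 3 without NUAK550 library 1 and 5 without lacZ library 2. The V-ATPase count was 2 without lacZ library 1 or NUAK550 library 3.

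**Figure D5:**
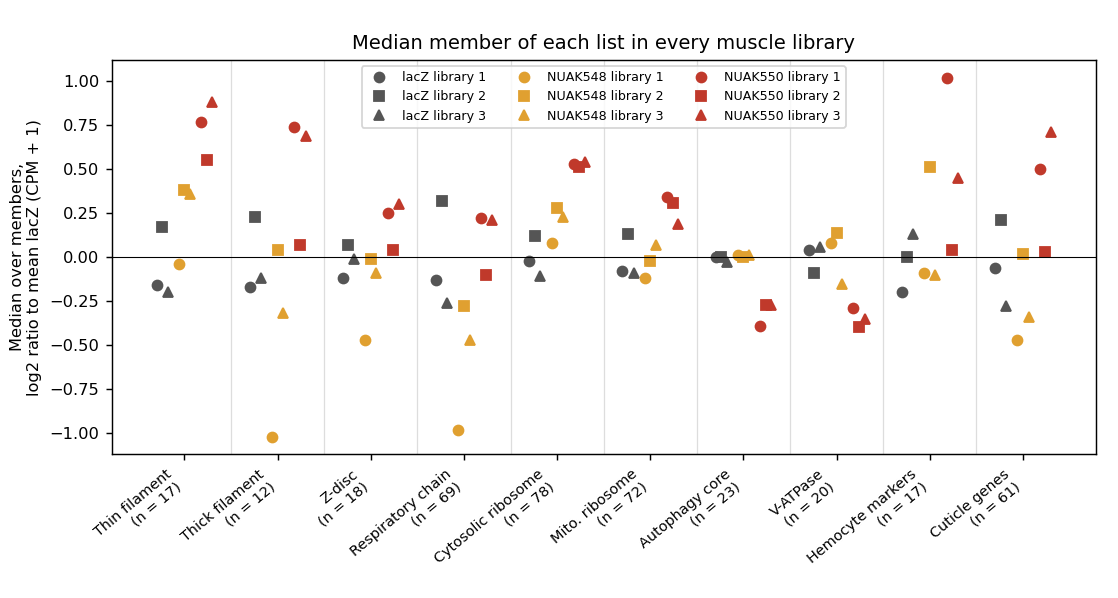
Median over the tested members of 10 lists in each of the 9 muscle libraries, as the log2 ratio to the mean lacZ level (1 CPM added to both). Circles, squares and triangles are libraries 1, 2 and 3 of lacZ (grey), NUAK548 (orange) and NUAK550 (red). The cytosolic ribosome medians of NUAK550 are 0.53, 0.51 and 0.54, while the hemocyte medians are 1.02, 0.04 and 0.45.

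Hemocytes are the blood cells of the larva, in flies mostly phagocytic plasmatocytes with some prophenoloxidase-making crystal cells. Of 17 tested hemocyte markers 2 rose and 0 fell, which is 11.8% beside 6.45% of all tested genes, with a median log2 of 0.59. The phagocytosis receptor NimC1 rose from 13.9, 16.8 and 17.9 CPM to 88.1, 52.0 and 65.9 CPM (log2 2.08, SE 0.25, adjusted p = 0.0025). Hemese (He), a surface protein of hemocytes, rose from 37.1, 48.0 and 42.3 CPM to 73.0, 75.8 and 79.5 CPM (log2 0.84, SE 0.16, adjusted p = 0.013). The NimC1 call held under every left-out library, and that of He was lost without lacZ library 1, lacZ library 3 or NUAK550 library 3 (adjusted p up to 0.059). Without NUAK548 library 1 or 2, 3 and 5 markers were called. All 17 markers were detected in both groups, and their summed level was 1128, 1349 and 1490 CPM in lacZ and 3419, 1515 and 2357 CPM in NUAK550. These sums do not overlap, but NUAK550 library 2 lies close to the lacZ range.

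No other hemocyte marker was called, although 15 of the 17 had log2 values above 0. Hml, a clotting protein, was 106, 145 and 183 CPM in lacZ and 425, 125 and 223 CPM in NUAK550 (log2 0.83, SE 0.45, adjusted p = 0.27), and the matrix enzyme Pxn was 196, 226 and 280 CPM against 508, 215 and 312 CPM (adjusted p = 0.31). The receptor eater (log2 0.23), the scavenger receptor crq (log2 -0.19) and the transcription factor srp (log2 0.06) did not pass the test. Prophenoloxidases PPO1 and PPO2 of crystal cells lay above lacZ in all 3 libraries, at 533, 206 and 395 CPM against 99.8, 120 and 105 CPM and at 443, 106 and 301 CPM against 75.8, 73.1 and 79.3 CPM, and missed the threshold (adjusted p = 0.14 and 0.15).

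Markers of further tissues were measured as a description of what the carcass held. Fat body markers summed to 10098, 5557 and 13749 CPM in lacZ and 19568, 7519 and 9135 CPM in NUAK550, and 0 of 11 were called, beside 12.6% of all tested genes. Neuron markers summed to 186, 196 and 204 CPM in lacZ and 361, 223 and 271 CPM in NUAK550, and 2 of 16 rose (12.5% beside 6.45% of all tested genes). They were unc-13 (log2 0.87, adjusted p = 0.003, with 25.2% of its exon length overlapping another gene) and para (log2 1.05, adjusted p = 0.039). The para call was lost under 6 left-out libraries of all 3 groups (adjusted p up to 0.13). Trachea, midgut, salivary gland and testis lists had 0 called of 8, 25, 8 and 10 tested markers, beside 12.6% of all tested genes. Of 8 glia markers 1 rose (12.5% beside 6.45% of all tested genes). It was nrv2 (log2 0.47, lost under 6 left-out libraries of all 3 groups, adjusted p up to 0.13). Salivary gland markers were highest in lacZ library 3 (1165 CPM) and NUAK550 library 3 (1373 CPM) and 47.3 to 267 CPM in the other 4. NUAK550 library 1 was thus the highest of the 6 for the hemocyte, fat body and neuron sums, and the part of these tissues in the results above was not tested.

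Cuticle protein genes, made by the epidermis in pulses before each moult, had 13 of 61 tested members higher and 2 lower (21.3% and 3.28%, beside 6.45% and 6.11% of all tested genes). Cpr67Fa2 rose from 4.09, 4.35 and 2.80 CPM to 260, 65.0 and 166 CPM (log2 5.45, SE 0.65, adjusted p = 0.0024). Cpr47Eg was 0.806, 0.464 and 0.669 CPM in lacZ and 246, 6.10 and 48.2 CPM in NUAK550 (log2 7.26, SE 1.39, adjusted p = 0.014), the widest spread within NUAK550 among the genes named for size. Cpr76Bc had 100 counts over the lacZ libraries and 0 over the NUAK550 libraries, so it was at least 36.7-fold lower when the NUAK550 libraries together are set to a floor of 3 counts. Several of these genes are tandem copies of nearly the same sequence (Cpr67Fa1 and Cpr67Fa2, the Lcp65Ag genes), which makes the split between copies uncertain. The calls of Lcp65Ag2, Lcp65Ag3, Cpr67Fa1, Cpr67Fa2 and Cpr76Bc held under every left-out library, while the others were lost under 1 or more in all 3 groups (adjusted p up to 0.18), and 4 genes were called higher without lacZ library 1 or lacZ library 3, 5 without lacZ library 2 and 7 without NUAK550 library 3.

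The summed level of all cuticle genes was 79268, 76193 and 83795 CPM in lacZ and 82777, 59531 and 82899 CPM in NUAK550. Genes of the ecdysone response, which times moulting, had 0 of 21 tested members called by edgeR, beside 12.6% of all tested genes (median log2 -0.36). Of the 21, 5 lay below lacZ in all 3 libraries, beside 16.3% of all tested genes. The receptor EcR was 425, 287 and 422 CPM in lacZ and 214, 257 and 228 CPM in NUAK550 (log2 -0.70, SE 0.22, adjusted p = 0.073). A difference in stage between the groups was not tested.

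Few immune genes were called. The NF-kappaB factor of the Imd pathway, Rel, rose from 175, 120 and 181 CPM to 354, 329 and 351 CPM (log2 1.12, SE 0.17, adjusted p = 0.0068). In the Toll and Imd list 1 of 21 tested genes rose and 3 fell (4.76% and 14.3%, beside 6.45% and 6.11% of all tested genes). The 3 that fell were the adaptor Myd88 (log2 -0.65), the sensor PGRP-LE (log2 -0.73) and the kinase pll (log2 -0.44). Antimicrobial peptide genes had 1 higher and 2 lower of 18 tested (5.56% and 11.1%, beside 6.45% and 6.11% of all tested genes, median log2 -1.68). Of the 18, 5 lay below lacZ in all 3 NUAK550 libraries and 1 above, beside 16.3% and 17.8% of all tested genes. List medians relative to mean lacZ were -0.64, -0.72 and 0.74 in lacZ, where library 3 stood apart. In NUAK550 they were -1.47, -0.86 and -1.25. IM33 was the higher call (log2 2.89, SE 0.62, adjusted p = 0.021), lost without any lacZ library (adjusted p up to 0.086). Metchnikowin (Mtk) was 16.7, 2.90 and 57.2 CPM in lacZ and 1.45, 1.44 and 0.729 CPM in NUAK550 (log2 -4.39, SE 1.06, adjusted p = 0.030), with a wide spread within lacZ, and drosocin (Dro) fell by log2 -3.54. Listericin, an antibacterial protein, fell from 296, 157 and 264 CPM to 14.3, 15 and 21.3 CPM (log2 -3.82, SE 0.35, adjusted p = 0.00086). The calls of Rel and Listericin held under every left-out library. Those of Mtk, Dro and the 3 Toll and Imd genes were lost when lacZ or NUAK550 libraries were left out (adjusted p up to 0.13), while 7 antimicrobial genes were called lower without lacZ library 2 and 0 without any other lacZ or NUAK550 library.

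Called genes of stress and death signalling moved in both directions. They were 1 higher and 2 lower of 11 cell death genes (9.09% and 18.2%), 2 and 1 of 17 JNK genes (11.8% and 5.88%) and 1 and 3 of 19 redox genes (5.26% and 15.8%). Over all tested genes the shares were 6.45% and 6.11%, and the list medians were log2 -0.18, -0.12 and -0.28. Reaper (rpr), which frees caspases from their inhibitor, fell from 19.3, 16 and 13.4 CPM to 1.58, 2.00 and 2.25 CPM (log2 -3.06, SE 0.29, adjusted p = 0.00094). The caspase inhibitor Diap1 rose (log2 0.49) and the effector caspase Drice fell (log2 -0.39). In the JNK pathway the phosphatase puc, a common readout of JNK activity, rose from 47.2, 35.4 and 55.6 CPM to 90.3, 93.9 and 108 CPM (log2 1.08, SE 0.23, adjusted p = 0.021). The Fos factor kay fell from 315, 415 and 402 CPM to 203, 166 and 215 CPM (log2 -0.95, SE 0.14, adjusted p = 0.0061). The glutathione transferase GstD2 rose from 1.24, 0.754 and 1.22 CPM to 10.7, 10.8 and 10.5 CPM (log2 3.31, SE 0.48, adjusted p = 0.0049), whereas GstD1, GstE1 and the peroxidase Gtpx fell by log2 -0.80, -0.76 and -0.75. The rpr, kay and GstD2 calls held under every left-out library. Those of Diap1, Drice, puc, GstD1, GstE1 and Gtpx were lost when lacZ, NUAK550 or NUAK548 libraries were left out (adjusted p up to 0.13).

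Energy metabolism showed few calls. Of 69 nuclear respiratory chain genes, 13 genes of the mitochondrial genome and 16 citrate cycle genes 0 were called by edgeR, beside 12.6% of all tested genes. Their medians were log2 0.13, -0.33 and 0.01. Of the 13 mitochondrial genome genes, 5 lay below lacZ in all 3 NUAK550 libraries and 0 above. Over all tested genes these shares were 16.3% and 17.8%. Among 23 glycolysis genes the hexokinase Hex-A fell from 259, 198 and 237 CPM to 88.8, 89.9 and 98.1 CPM (log2 -1.32, SE 0.17, adjusted p = 0.0029). The other 22 were not called, so 4.35% of the list was lower, beside 6.11% of all tested genes. In lipid metabolism the phosphatidate phosphatase Lpin fell from 103, 115 and 103 CPM to 64.5, 55.5 and 66.3 CPM (log2 -0.79, SE 0.14, adjusted p = 0.010). The mitochondrial fatty acid oxidation subunit Mtpalpha fell from 241, 257 and 233 CPM to 158, 148 and 148 CPM (log2 -0.69, SE 0.11, adjusted p = 0.0066). The calls of Hex-A, Lpin and Mtpalpha held under every left-out library.

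Signals between muscle and other tissues and regulators of muscle identity were also examined. In the BMP and activin list 1 of 15 genes rose and 4 fell (6.67% and 26.7%, beside 6.45% and 6.11% of all tested genes). The ligand mav rose (64.5, 70.1 and 59.3 to 93.3, 105 and 104 CPM, log2 0.64, SE 0.10, adjusted p = 0.0056), while 4 genes fell. These were the activin-type ligand daw (34.8, 47.1 and 54.8 to 23.9, 19.9 and 19.6 CPM, log2 -1.11, SE 0.20, adjusted p = 0.010), the shared Smad Med (log2 -0.68), the inhibitory Smad Dad (log2 -0.60) and the ligand gbb (log2 -0.30). The calls of mav, daw and Med held under every left-out library, whereas those of Dad and gbb were lost under 7 and 9 of the 9 (adjusted p up to 0.15). Of 24 muscle identity genes 1 rose and 1 fell (4.17% each, beside 6.45% and 6.11% of all tested genes). The splicing factor muscleblind (mbl) rose from 200, 222 and 215 CPM to 371, 434 and 363 CPM (log2 0.87, SE 0.13, adjusted p = 0.0051). Its call held under every left-out library, and the homeodomain cofactor exd fell (log2 -0.44), a call lost without lacZ library 1 or 3 or NUAK550 library 1 or 3 (adjusted p up to 0.071). Mef2, the gene whose regulatory sequence gives the driver its name, was 274, 241 and 175 CPM in lacZ and 126, 208 and 183 CPM in NUAK550 (log2 -0.42, SE 0.29, adjusted p = 0.38).

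The genes with the highest fold changes at a mean of at least 5 CPM in the higher group were mostly of low level in lacZ. CG13230 was 0.124, 0.174 and 0.304 CPM in lacZ and 98.1, 17.2 and 65.3 CPM in NUAK550 (log2 8.17, SE 0.87, adjusted p = 0.0015), and CG11350 was 2.98, 1.51 and 1.09 CPM against 1007, 130 and 316 CPM (log2 8.02, SE 1.00, adjusted p = 0.0028). Library 2 was the lowest of NUAK550 for both. Also higher were mthl8, a receptor of the methuselah family (0.248, 0 and 0 against 6.59, 12.6 and 10.4 CPM, log2 6.81), CG40298 (10.9, 10.3 and 14.3 CPM in NUAK550, log2 6.53) and Dnaaf3, an assembly factor of axonemal dynein (7.18, 8.71 and 11.6 CPM in NUAK550, log2 5.61). The transcription factor lame duck (lmd), known from myoblasts of the embryo, was 0.310, 0.058 and 0.365 CPM in lacZ and 9.56, 5.69 and 8.88 CPM in NUAK550 (log2 5.01, SE 0.58, adjusted p = 0.0021).

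At the other end stood Tektin-C, a protein of cilia, at 13, 12.2 and 16.7 CPM in lacZ and 0.0659, 0.256 and 0.199 CPM in NUAK550 (log2 -6.23, SE 0.43, adjusted p = 0.0004), and Oseg5, a protein of transport within cilia (log2 -3.89). Both fell while Dnaaf3, another gene of cilia, rose. The receptors AstA-R2 for allatostatin (115, 76.2 and 73.4 to 8.70, 18.6 and 11.4 CPM, log2 -2.77) and Octalpha2R for octopamine (37.8, 24.8 and 28.0 to 3.16, 3.23 and 4.17 CPM, log2 -3.10) fell with adjusted p of 0.0056 and 0.0011. The calls of these 6 higher and 4 lower genes held under every left-out library.

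The roX RNAs and the eye colour gene white (w) bear on how far the groups differ in more than NUAK. The roX RNAs coat the X chromosome of males as parts of the dosage compensation complex. The level of roX1 was 400, 428 and 456 CPM in lacZ and 49.4, 55.2 and 50.4 CPM in NUAK550 (log2 -3.05, SE 0.29, adjusted p = 0.0010). For roX2 there were 416 counts over the lacZ libraries and 2 over the NUAK550 libraries, a ratio of 229 with an exact 95% interval of 63.1 to 1899 that covers counting error only. The complex subunit msl-2 fell from 17.0, 18.9 and 18.4 CPM to 11.3, 14 and 10.9 CPM (log2 -0.58, SE 0.14, adjusted p = 0.030), while the female switch gene Sxl was at log2 -0.27 (SE 0.10, adjusted p = 0.11). The gene w, the usual marker gene of transgenes, rose from 39.2, 40.7 and 34.6 CPM to 111, 97.6 and 121 CPM (log2 1.53, SE 0.15, adjusted p = 0.00097). The calls of both roX genes and w held under every left-out library, and that of msl-2 was lost without any lacZ library, NUAK550 library 1 or NUAK550 library 3 (adjusted p up to 0.10).

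Genes of the X as a whole stayed near the other chromosome arms. Dosage compensation evens X output between the sexes, so these levels could not show the proportion of males. Of 1619 tested X-linked genes 11.3% were called, beside 11.2% to 16.1% on the other chromosome arms, and their median log2 was 0.05, beside 0.02 to 0.09. The Y-linked genes gave no tested member, with summed levels of 0 to 0.464 CPM in lacZ and 0.0659 to 1.13 CPM in NUAK550, so they could not show the proportion of males in these carcasses. A difference in sex ratio or in line background between the groups was not tested, and neither can be told apart from the effect of NUAK by these labels.

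NUAK550 was also tested directly against NUAK548 muscle in the same fit, where 142 genes (1.45%) differed. Among the chaperones, l(2)efl was at log2 0.01 with an adjusted p of 0.98, and Hsc70-3, the Hsp70 of the endoplasmic reticulum, was lower in NUAK550 than in NUAK548 (log2 -0.83, adjusted p = 0.038). The difference in Nuak itself did not pass the test (log2 0.70, adjusted p = 0.095). None of the 47 sarcomere genes, 45 autophagy genes, 78 ribosomal genes or 17 hemocyte markers passed this test, which does not show that the lines act alike. Genes that did differ were CG13230 (log2 7.72), CG11350 (log2 7.48), lmd (log2 4.95), Dnaaf3 (log2 6.16), Cpr67Fa2 (log2 6.07), Listericin (log2 -4.02) and Hex-A (log2 -1.12), together with w (log2 1.22), roX1 (log2 -1.96) and roX2 (log2 -6.06). The NUAK550 effect in muscle was further tested against that in whole larvae over all 18 libraries, where 226 of 12429 genes (1.82%) differed, among them RyR. Its log2 value was -1.70 in the fit to muscle libraries and 1.84 in a separate fit to whole-larva libraries. The calls of these last comparisons were not tried with libraries left out.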

How the data were processed

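Per the submitters' processing notes, Trimmomatic 0.36, STAR 2.5.2b, featureCounts of Subread 1.5.2, DESeq2 and the genome build BDGP6 were used. The deposited values analysed here are raw counts of reads per gene, per the file headers, with gene coordinates and symbols; the authors' normalized values were not used. Whether the counting used strand or split multiply mapped reads is not given, so genes with near-identical copies or overlapping neighbours are uncertain.

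From these counts, edgeR 4.0.16 in R 4.3.3 fitted the 3 muscle groups (9 libraries, 6 residual degrees of freedom) after its default low-count filter and scaling by the trimmed mean of M values. Two-sided quasi-likelihood F tests gave p-values adjusted by Benjamini-Hochberg over 9821 genes, and a gene was called below 0.05. "Rose" and "fell" are used of called genes. The difference between muscle and whole larvae was tested as an interaction over all 18 libraries (12 residual degrees of freedom). Effects in whole larvae come from a separate fit to the whole-larva libraries. SE is the log2 fold change divided by the square root of F. The fit was also run on simulated counts with known changes. These were drawn with a spread set by level alone and no shift shared across a library. They therefore do not show how library differences in the real data affect the calls. The alternatives were DESeq2 1.42.0, its size factors, no filter, a minimum of 5 CPM in 3 libraries, the 6 libraries alone, a replicate block, no X-linked genes and each library left out.

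Genes named are Nuak, the roX genes and w; the 15 highest and 15 lowest fold changes among called genes whose groups did not overlap, with a mean of at least 5 CPM in the higher group; up to 6 called members per list and its core members; and genes near 0 counts in 1 group. Act5C, Act42A, GluRIIC, RpL27, Hml, Pxn, eater, crq, srp, PPO1, PPO2 and the Lcp65Ag genes were added after their values were seen. The gene lists, like the groups themselves, were chosen with earlier results of these data known.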

Additional observations from a re-analysis of the deposited data

Results flagged for a closer look

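The NUAK550 effect differed between muscle carcass and whole larvae in the interaction test for 226 of 12429 genes (1.82%), and 25 of the genes named here were among them (edgeR adjusted p from 0.00032 to 0.046). Values below are log2 differences, muscle effect minus whole-larva effect, estimated in the fit to all 18 libraries. The effects set beside them come from separate fits, to the 9 muscle libraries and to the whole-larva libraries, so they do not subtract exactly. RyR had the opposite sign in the 2 preparations, -1.70 in muscle and 1.84 in whole larvae, a difference of -3.45 (SE 0.72). Opposite signs were also seen for Strn-Mlck (-1.27), flr (-1.21), GluRIIA (-1.21), GluRIID (-1.09) and daw (-1.36), lower in muscle, and for sand (2.07), higher in muscle.

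The small heat shock protein l(2)efl was at log2 4.27 in muscle and 2.06 in whole larvae, a difference of 2.30 (SE 0.22), although Nuak itself was at 3.45 and 4.80, a difference of -1.26. More positive in muscle were further Dyb (1.43), mRpL11 (1.46), cathD (0.97), the ribosomal paralogue RpS5b (2.82), CG30334 (6.82) and CG40298 (4.19). More negative in muscle were Hex-A (-1.33), Vha68-1 (-0.67), kay (-1.03), rpr (-1.95), Listericin (-3.35), AstA-R2 (-2.15), Octalpha2R (-2.92), Dscam4 (-3.63), CG43740 (-3.33) and CG8641 (-4.24). A whole larva holds many tissues besides muscle, and the part of tissue make-up in these differences was not tested.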

How the results depend on the processing

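Against the 1233 calls (633 higher, 600 lower), DESeq2 gave 1880 with 991 lower. The replicate block gave 572, with 289 higher and 283 lower, 17 ribosomal genes higher, 3 sarcomere genes higher and 1 lower, and 2 autophagy genes lower. Same-numbered libraries correlated at -0.441 to 0.4 in their deviations from group means, so the numbers are not treated as pairs. With each library left out, the calls ranged from 403 to 1297, the higher genes from 197 to 650 and the lower from 206 to 647. Over the same 9 fits, higher ribosomal genes ranged from 3 to 68, hemocyte markers from 1 to 5, sarcomere genes from 2 to 11 higher and 0 to 4 lower, and autophagy genes from 0 to 1 higher and 2 to 9 lower. Without the low-count filter 34 ribosomal genes were higher and 2 sarcomere genes lower. With the 6 libraries alone, 4 hemocyte markers and 11 sarcomere genes were higher. DESeq2 called 5 hemocyte markers, 11 sarcomere genes and 3 autophagy genes higher and 15 autophagy genes lower, and a minimum of 5 CPM gave 3 autophagy genes higher. The causes were not tested.

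Of 122 called genes with values in the text, 101 could be tested under all 16 alternatives, and 47 of these kept their call in each. The sign changed for cher, near 0, with DESeq2 or its size factors (-0.02), the 6 libraries alone (-0.01), the replicate block (-0.00) and 4 of the left-out libraries (range over all 9 from -0.25 to 0.17), and for Syx17 without NUAK550 library 1 (range over all 9 from -0.22 to 0.03).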

Other observations

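Cell growth was further described by genes of DNA replication, since larval muscle nuclei copy their DNA without dividing. Of 26 tested replication genes 4 rose and 0 fell (15.4% beside 6.45% of all tested genes, median log2 0.22). The clamp loader subunit Gnf1 was 23.9, 20.1 and 22.9 CPM in lacZ and 36.0, 33.6 and 35.0 CPM in NUAK550 (log2 0.64, SE 0.10, edgeR adjusted p = 0.0066), a call that held under every left-out library. The ribonucleotide reductase subunit RnrS (log2 0.57), the clamp loader subunit RfC4 (log2 0.57) and the origin licensing factor Cdc6 (log2 0.77) rose too, and their calls were lost when lacZ, NUAK550 or NUAK548 libraries were left out (adjusted p up to 0.16). With lacZ library 1 or NUAK550 library 3 left out, 1 replication gene was called, and 2 without NUAK550 library 1, lacZ library 2 or lacZ library 3.

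In the integrated stress response, the kinase Gcn2, which senses uncharged tRNA, rose from 26.3, 31.8 and 35.7 CPM to 45.9, 43.7 and 42.3 CPM (log2 0.49, SE 0.13, edgeR adjusted p = 0.043). The fly ATF4 gene crc rose from 896, 1031 and 979 CPM to 1369, 1301 and 1463 CPM (log2 0.51, SE 0.12, edgeR adjusted p = 0.032). These were the called genes among 15 of the unfolded protein and integrated stress responses (13.3% higher beside 6.45% of all tested genes). Both calls were lost without any lacZ or NUAK550 library or NUAK548 library 3 (adjusted p up to 0.13).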
